A study of Mus musculus with 12 samples.

Results

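The genes described here encode lipoprotein lipase (Lpl) and 9 proteins that inhibit it or act on fatty acids in the cell as binding proteins, droplet coats, enzymes or a receptor: Lipa, Pnpla2, Plin2, Plin3, Fabp4, Fabp5, Angptl4, Pparg and Dgat1. They were chosen by symbol, through the GENCODE M21 mouse annotation, and all 10 were found among the 23438 genes of the deposited table and among the 11152 genes tested. RNA was sequenced from bone marrow derived macrophages (BMDMs), cells grown from the marrow of C57 mice with atherosclerosis and collected on day 7 of differentiation. There were 5 libraries of Baf60a knockout (KO) cells and 7 libraries of wild-type (WT) cells, and both genotypes had the same differentiation treatment. Baf60a is encoded by Smarcd1 and is a subunit of the SWI/SNF complex, which moves nucleosomes. The labels do not say how the deletion was made, how old the mice were or whether each library came from its own mouse. A p-value here therefore refers to variation from library to library, which may in part be technical. Values are TPM, each gene's share of the transcripts of a library, corrected for gene length and scaled to a fixed total, which carry no sequencing depth. 

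Lipoprotein lipase is secreted by macrophages, adipocytes and muscle and splits the triglycerides of circulating lipoproteins into fatty acids. In macrophages the fatty acids are bound by FABP proteins, esterified and kept in droplets coated by perilipins, and released again by lipases of the cytosol and the lysosome. PPARγ, a nuclear receptor that senses fatty acids and pairs with RXR, activates several of these genes, among them Lpl, Fabp4, Plin2, Angptl4 and the fatty acid receptor gene Cd36.

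PPAR and RXR bind together to repeats of a hexamer, AGGTCA, so the promoter windows at hand were searched for it. RefSeq (GRCm38.p6) gave promoter windows for 5 of the 10 genes, 7 windows in all. These were Plin2, Pparg, Pnpla2, Plin3 and Lipa. The promoters of Lpl, Fabp4, Fabp5, Angptl4 and Dgat1 had no window and were not searched. The 250 bases before each start were searched on both strands. The single hexamer was present in 3 windows, 1 of Plin2 and 2 of Pparg, and 14.0% of all 32851 windows of this length hold it. The paired form, in which AGGTCA is followed by any 1 base and AGGTCA again and which so contains the hexamer, was in none of the 7 windows and in 0.0335% of all windows. The 3 windows are shown because they belong to the receptor gene and to the droplet coat gene among its targets, with the hexamer, or its complement, in capitals.
Plin2, chr4:86670060-86670309, minus strand: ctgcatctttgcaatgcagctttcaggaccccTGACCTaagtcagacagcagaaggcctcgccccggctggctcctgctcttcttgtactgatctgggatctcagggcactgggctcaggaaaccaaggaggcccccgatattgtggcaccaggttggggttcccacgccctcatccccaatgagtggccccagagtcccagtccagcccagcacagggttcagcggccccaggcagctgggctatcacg
Pparg, chr6:115360894-115361143, plus strand: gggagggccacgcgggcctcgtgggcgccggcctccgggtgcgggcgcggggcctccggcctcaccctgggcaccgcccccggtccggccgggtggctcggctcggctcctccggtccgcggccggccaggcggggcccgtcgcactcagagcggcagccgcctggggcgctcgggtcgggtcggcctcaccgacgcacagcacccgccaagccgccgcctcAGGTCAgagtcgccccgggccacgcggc
Pparg, chr6:115362099-115362348, plus strand: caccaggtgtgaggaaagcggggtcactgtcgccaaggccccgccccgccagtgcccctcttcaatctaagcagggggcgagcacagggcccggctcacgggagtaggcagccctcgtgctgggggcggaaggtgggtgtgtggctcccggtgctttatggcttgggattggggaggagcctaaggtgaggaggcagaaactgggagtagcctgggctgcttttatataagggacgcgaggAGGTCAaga
In the Plin2 window the hexamer starts at position -218 and lies on the strand opposite to the gene. In the Pparg windows it starts at positions -28 and -9, on the strand of the gene. A match is a description of the letters and not of binding. Only exact matches within these 250 bases were searched, so absence does not show that a gene lacks a binding site.

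The RNA level of the targeted gene was checked first. Smarcd1 was at 5.99, 6.90, 6.92, 7.58 and 7.12 TPM in KO replicates 1 to 5, against 11.63 to 15.60 TPM in the WT libraries. The difference was -0.88 ± 0.080 on the log2 scale (SE; adjusted p of 7.44e-04, limma). The mean TPM in KO was 0.507 times that in all WT, so part of the signal remained. On the opposite strand 3 annotated genes overlap Smarcd1, and their reads may not be separated from it. All 9 macrophage markers listed reached 1 TPM in every library. Their summed level was 10503 to 11368 TPM in KO libraries. It was 7287 to 25013 TPM in WT replicates 2 to 4, and 20074 to 22715 TPM in WT replicates 1, 5, 6 and 7. The lysozyme gene Lyz2 made up much of the sum, at 5406 ± 366 TPM in KO (SD, n = 5) and 15817 ± 956 TPM in WT replicates 1, 5, 6 and 7 (SD, n = 4), and by limma Lyz2 was lower in KO, with a log2 difference of -1.55 with 9 libraries (adjusted p of 5.68e-06) and -1.40 with 12 (adjusted p of 0.111). Without Lyz2, the sums were 5480 to 5571 TPM in KO, 2055 to 3466 TPM in WT replicates 2 to 4 and 5439 to 6588 TPM in the other WT. Of 9 adipocyte markers in the table, none reached 1 TPM in any library.

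WT replicates 2, 3 and 4 stood apart. Their Pearson correlations across genes were 0.969 to 0.991 among themselves but 0.833 to 0.928 to the other 9 libraries, which correlated at 0.982 to 0.996 with each other. Summed fibroblast markers were 1725, 1171 and 2726 TPM in WT replicates 2, 3 and 4, where KO libraries had 77.7 to 206 TPM and WT replicates 1, 5, 6 and 7 had 43.3 to 161 TPM. Summed smooth muscle markers were 4744, 3424 and 9152 TPM there, with 140 to 470 TPM in KO and 82.3 to 324 TPM in the remaining WT. Summed neutrophil markers ran the other way, at 79.1, 86.3 and 109 TPM there and 1194 to 1546 TPM in the remaining 4. In KO replicates 1 to 5 the neutrophil sum was 6259, 2106, 1916, 4375 and 1004 TPM. Summed endothelial markers were 20.4 to 67.1 TPM in WT replicates 2 to 4. They were 6.38 to 10.6 TPM in KO and 9.35 to 15.7 TPM in the remaining WT. Genes of the macrophage and alveolar macrophage lists also differed. In the alveolar list, Marco was at 1186 to 2043 TPM in WT replicates 2 to 4 and at most 2.64 TPM elsewhere. Siglecf and Chil3 of the same list went the other way, at 0.13 to 0.20 and 1.99 to 2.99 TPM there and at least 0.96 and 83.15 TPM elsewhere. In the macrophage list, C1qa was at 146 to 474 TPM in WT replicates 2 to 4 and 2241 to 3113 TPM elsewhere. Csf1r (170 to 275 TPM there, 541 to 910 TPM elsewhere) and Fcgr1 (15.4 to 37.1 TPM there, 96.1 to 164 TPM elsewhere) were lower too, while Cd68 overlapped. In bulk RNA, fewer cells of a type and less RNA per cell cannot be told apart. Each comparison of genotypes is therefore given with all 12 libraries and with the 9 libraries without WT replicates 2 to 4.

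Lpl was the only one of the 10 genes whose KO libraries all lay outside the range of WT. Lpl (ENSMUSG00000015568, chr8:68880491-68907448 in GRCm38, plus strand) had 735.65, 1361, 1246, 926 and 979 TPM in KO replicates 1 to 5, against 464, 497, 380, 292, 538, 723 and 474 TPM in WT replicates 1 to 7. The lowest KO library (replicate 1) lay just above the highest WT library (replicate 6), and the other 4 KO libraries lay well above every WT library. Lpl averaged 1049.6 ± 252 TPM in KO (SD, n = 5) and 481 ± 134 TPM in all WT (SD, n = 7), a ratio of mean TPM of 2.18. On the log2(TPM + 1) scale KO exceeded WT by 1.14 ± 0.21 (SE), and limma gave an adjusted p of 0.0865, above the threshold of 0.05. An exact two-sided permutation test of Lpl alone, over all 792 assignments of genotype, gave p = 0.00126, the smallest it can give.

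Without WT replicates 2 to 4 the spread of Lpl within WT was similar and the call changed. The other WT libraries averaged 549.6 ± 120 TPM (SD, n = 4), the ratio of KO to them was 1.91, and the log2 difference was 0.92 ± 0.19 (SE; adjusted p of 0.0408, limma). An exact two-sided permutation test of Lpl over all 126 assignments gave p = 0.0159, where 0.00794 is the smallest possible. The call is near the threshold: with the median-ratio scaling of the libraries the limma adjusted p was 0.0532, with a term for submission numbers 1 to 5 against 6 to 12 (the serial numbers in the labels) it was 0.0667, and it was above 0.05 when any 1 of KO replicates 2 to 5 or WT replicates 1, 5 or 7 was left out. The log2 difference itself stayed between 0.76 and 1.13 over the settings run with these libraries. Without KO replicates 1 and 4, the KO libraries with the highest neutrophil sums, it was 1.13 with a limma adjusted p of 0.0243. These libraries also had the lowest Lpl in KO, so leaving them out had to raise the difference. The setting was added after the values were seen, and the part of neutrophil RNA was not tested.

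Counted over the 10 genes, limma called 0 with 12 libraries, where it called 0.126% of all genes tested, and 2 of the 10 (Lpl and Angptl4) had an unadjusted p under 0.05, as had 17.5% of all genes tested. With sample quality weights in limma it called 1, beside 6.81% of all genes tested. With 9 libraries it called 1 of the 10, Lpl, higher in KO, beside 2.33% of all genes tested in either direction and 1.61% higher in KO. Groups did not overlap for 1 of the 10 genes, again Lpl, in both sets, where KO lay above WT for 2.92% of all genes with 12 libraries and for 7.09% with 9. The median log2 fold change of the 10 genes was -0.06 with 12 libraries and 0.12 with 9, beside 0.04 and 0.05 over all genes tested.

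**Figure D1:**
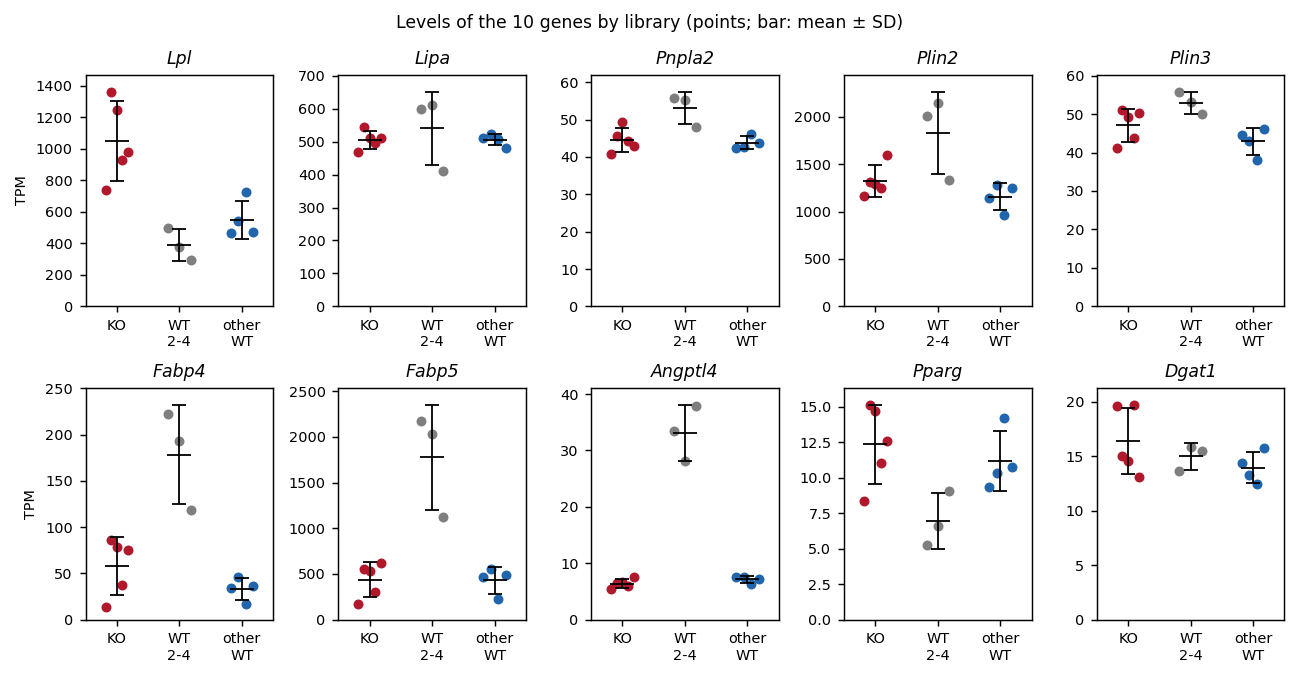
TPM of each of the 10 genes in 5 KO libraries, WT replicates 2 to 4 and the 4 other WT libraries (points), with the mean ± SD of each group (bars), each panel on its own linear axis from 0. Lpl lies above WT in all 5 KO libraries, and Fabp4, Fabp5 and Angptl4 lie highest in WT replicates 2 to 4.

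Angptl4 encodes a secreted protein that inactivates lipoprotein lipase and is itself a PPAR target. Angptl4 (ENSMUSG00000002289, chr17:33773750-33781830, minus strand) was at 5.40, 6.48, 6.67, 5.92 and 7.54 TPM in KO replicates 1 to 5, against 33.37, 28.10 and 37.93 TPM in WT replicates 2 to 4 and 7.59, 7.62, 6.35 and 7.13 TPM in WT replicates 1, 5, 6 and 7. All WT replicates 2 to 4 were above every other library, and the KO libraries overlapped the remaining WT. With 12 libraries the log2 difference of Angptl4 was -1.03 ± 0.47 (SE, limma adjusted p of 0.284). With 9 libraries Angptl4 averaged 6.40 ± 0.808 TPM in KO (SD, n = 5) and 7.17 ± 0.592 TPM in WT (SD, n = 4), a log2 difference of -0.15 ± 0.090 (SE, limma adjusted p of 0.415). The mean TPM of WT replicates 2 to 4 was 4.62 times that of the other WT, in the libraries where smooth muscle and fibroblast marker sums were also highest. Macrophage genes such as Marco and C1qa also differed in these libraries. The part of other cells, or of the macrophages themselves, in the Angptl4 level was not tested.

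Fabp4 and Fabp5 encode cytosolic fatty acid binding proteins and are neighbours on chromosome 3, with 187480 bases between them. Fabp4 (ENSMUSG00000062515, chr3:10204088-10208576, minus strand) had 13.35, 85.91, 78.35, 37.76 and 75.28 TPM in KO replicates 1 to 5, against 223, 194 and 119 TPM in WT replicates 2 to 4 and 34.12, 46.26, 17.40 and 36.50 TPM in WT replicates 1, 5, 6 and 7. Its KO libraries spread widely, with a coefficient of variation of 53.7%, and ran both below and above the other WT libraries. The sign of the Fabp4 difference turned with the libraries used: it was -0.44 ± 0.69 (SE, limma adjusted p of 0.681) with 12 and 0.59 ± 0.52 (SE, limma adjusted p of 0.593) with 9.

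Fabp5 (ENSMUSG00000027533, chr3:10012548-10016607, plus strand) had 169, 555, 531, 306 and 623 TPM in KO replicates 1 to 5, against 2179, 2029 and 1119 TPM in WT replicates 2 to 4 and 467, 549, 221 and 485 TPM in WT replicates 1, 5, 6 and 7. WT replicates 2 to 4 were again above all others, and the KO libraries overlapped the remaining WT. The log2 difference of Fabp5 was -0.93 ± 0.57 (SE, limma adjusted p of 0.346) with 12 libraries and -0.05 ± 0.41 (SE, limma adjusted p of 0.967) with 9. KO replicates 1 and 4 had the lowest Fabp4 and Fabp5 in KO and the highest neutrophil sums. Their part in the spread was not tested. Of the 51-base stretches of Fabp5 transcripts, 5.29% also occur in other genes, most in Gm6166, so a small part of its level could be divided between them.

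Pparg encodes the receptor PPARγ. Pparg (ENSMUSG00000000440, chr6:115360951-115490399, plus strand) had 8.36, 15.11, 14.68, 11.06 and 12.57 TPM in KO replicates 1 to 5, against 5.23, 6.59 and 9.09 TPM in WT replicates 2 to 4 and 9.36, 10.36, 14.23 and 10.79 TPM in WT replicates 1, 5, 6 and 7. WT replicates 2 to 4 were the lowest WT libraries, and the KO range covered that of the other WT. The log2 difference of Pparg was 0.39 ± 0.21 (SE, limma adjusted p of 0.320) with 12 libraries and 0.12 ± 0.17 (SE, limma adjusted p of 0.749) with 9. An antisense gene, Gm44079, overlaps Pparg, and the labels do not say whether strand was used in counting, so their reads may not be separated.

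**Figure D2:**
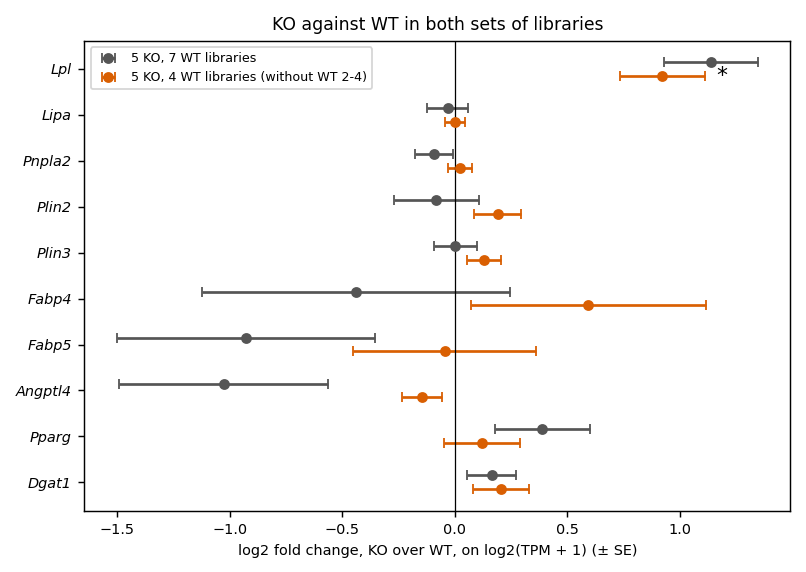
Log2 fold change of KO over WT on the log2(TPM + 1) scale for each of the 10 genes, with 12 libraries (grey) and with the 9 libraries without WT replicates 2 to 4 (orange), bars showing the SE from limma and the star a limma adjusted p under 0.05. Lpl is the highest in both sets at 1.14 and 0.92, while Fabp4 lies on opposite sides of 0.

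Among the droplet coat genes, Plin2 was abundant in every library and Plin3 moderate, and neither passed the test. Plin2 (chr4:86648386-86670060, minus strand) encodes the perilipin that coats most droplets of macrophages. It had 1158, 1313, 1287, 1243 and 1597 TPM in KO replicates 1 to 5, against 2012, 2141 and 1331 TPM in WT replicates 2 to 4 and 1140, 1280, 961 and 1249.68 TPM in WT replicates 1, 5, 6 and 7. The groups KO and other WT overlapped, and WT replicates 2 and 3 were above all other libraries. The log2 difference of Plin2 was -0.08 ± 0.19 (SE, limma adjusted p of 0.781) with 12 libraries and 0.19 ± 0.11 (SE, limma adjusted p of 0.367) with 9. Plin3 (chr17:56277476-56292873, minus strand), whose protein moves between the cytosol and new droplets, averaged 47.1 ± 4.35 TPM in KO (SD, n = 5) and 47.2 ± 6.13 TPM in all WT (SD, n = 7), with limma adjusted p of 0.997 and, with 9 libraries, 0.402.

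No enzyme gene for making or breaking stored triglyceride passed the test. Dgat1 (chr15:76502015-76511953, minus strand), which adds the last fatty acid to triglyceride, averaged 16.4 ± 3.07 TPM in KO (SD, n = 5) and 14.4 ± 1.34 TPM in all WT (SD, n = 7), with limma adjusted p of 0.366 and, with 9 libraries, 0.414. KO replicates 1 and 4 had the highest Dgat1 levels of all libraries, 19.66 and 19.72 TPM. Pnpla2 (chr7:141455198-141460743, plus strand) encodes adipose triglyceride lipase, which starts the breakdown of droplets in the cytosol. It averaged 44.5 ± 3.20 TPM in KO (SD, n = 5) and 47.8 ± 5.70 TPM in all WT (SD, n = 7), with limma adjusted p of 0.474 and 0.865. Lipa (chr19:34492318-34527474, minus strand) encodes lysosomal acid lipase, which frees cholesterol and fatty acids from lipoproteins taken up. It had 468 to 543 TPM in KO libraries and 412 to 609.92 TPM in WT libraries, averaging 506 ± 27.4 TPM in KO (SD, n = 5) and 521 ± 67.9 TPM in all WT (SD, n = 7), with limma adjusted p of 0.821 and 0.994. Over the 9 libraries Lipa varied least of the 10 genes, with a coefficient of variation of 4.38%, against 56.4% for Fabp4 and 39.5% for Lpl. The value for Lpl also holds the difference between genotypes. Within KO and within the other WT it was 24.0% and 21.8% for Lpl, and 53.7% and 35.7% for Fabp4.

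Set against the other WT libraries, WT replicates 2 to 4 separated the 10 genes differently from genotype. Because these 3 libraries were set apart by earlier results of the same data, the values are a description with no test. The 3 libraries lay above all 4 other WT libraries for 6 of the 10 genes and below them for 1, Pparg, where 58.2% of all genes tested did not overlap in either direction, 29.9% higher and 28.3% lower. The ratio of mean TPM in WT replicates 2 to 4 to that in the other WT was 5.32 for Fabp4, 4.62 for Angptl4, 4.12 for Fabp5, 1.58 for Plin2, 1.23 for Plin3 and 1.21 for Pnpla2. With median-ratio scaling, Plin2 and Pnpla2 overlapped and the other 5 of the 7 genes did not. For Lpl the ratio was 0.709, with 389.7 ± 103 TPM in WT replicates 2 to 4 (SD, n = 3) and 549.6 ± 120 TPM in the other WT (SD, n = 4), and the groups overlapped. The ratio for Pparg was 0.623, and for Lipa and Dgat1, which overlapped, 1.07 each. Of 21 other PPAR target genes tested, WT replicates 2 to 4 lay above all the other WT for 10 and below them for 5, so these targets had no common direction either. Cd36, encoding the fatty acid receptor, had 1085, 979 and 747 TPM in WT replicates 2 to 4 and 1025, 1064, 958 and 983 TPM in the other WT, which overlapped.

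**Figure D3:**
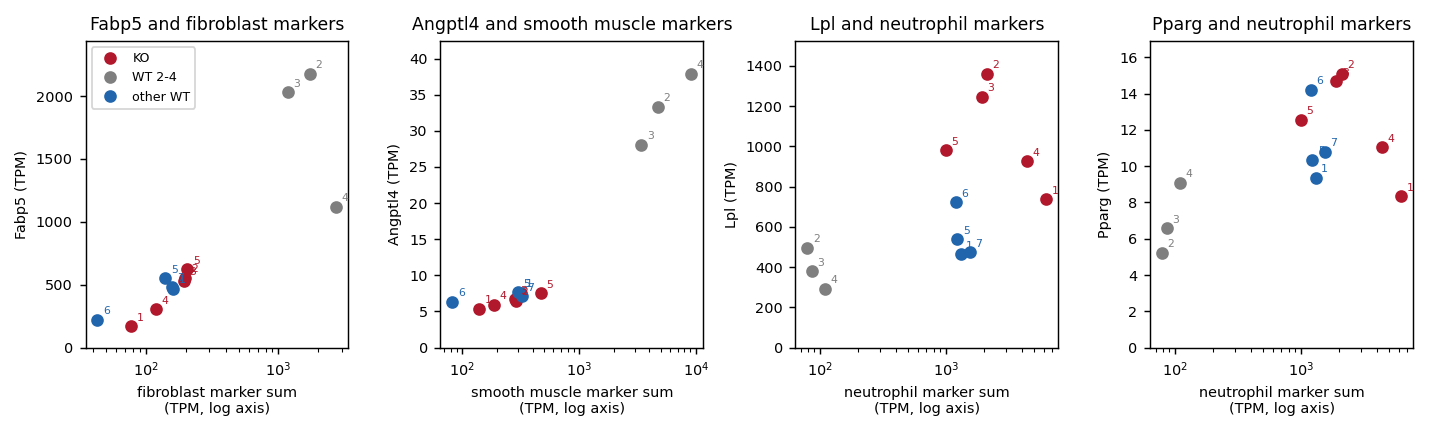
Levels of Fabp5, Angptl4, Lpl and Pparg (TPM, linear axes from 0) against the summed TPM of marker lists (log axes) in each library, numbered by replicate. WT replicates 2 to 4 lie apart in all panels, at fibroblast sums of 1171 to 2726 TPM and neutrophil sums of 79.1 to 109 TPM.

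Whether Lpl moved with the other genes was asked over the 9 libraries, since the 12 fall into separate clusters. Pearson's r of log2(TPM + 1) with Lpl was 0.695 for Pparg (exact permutation p of 0.043, 0.346 adjusted over the 9 genes), and Spearman's rho was 0.733 (exact permutation p of 0.0311, 0.20 adjusted). It was 0.568 for Pnpla2, 0.523 for Fabp4, 0.519 for Plin3, 0.392 for Lipa, 0.367 for Plin2, 0.117 for Fabp5, 0.086 for Dgat1 and -0.373 for Angptl4. None of the 9 passed after adjustment in either measure. KO and WT levels of Lpl did not overlap, so these values mix the difference between genotypes with the spread within them. Without KO replicates 2 and 3, the libraries farthest from the median of Lpl, r with Pparg was 0.383 (exact permutation p of 0.394, n = 7). The relation with Pparg did not hold without those 2 libraries, whose removal also narrows the range of Lpl. No other pair was left out.

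Within genotypes, r of Lpl among the 9 genes was highest with Pparg. After the mean of each genotype was subtracted, r with Pparg was 0.96 (exact permutation p of 2.4e-04, 0.00216 adjusted over 9 genes) and rho was 0.917 (exact permutation p of 0.00131, 0.0118 adjusted). Among KO libraries the order of Lpl, from replicate 1 through 4, 5 and 3 to 2, was also the order of Pparg. KO replicates 1 and 4, the lowest in both, had the highest neutrophil marker sums, 6259 and 4375 TPM, against 1004 to 2106 TPM in KO replicates 2, 3 and 5. The part of neutrophil RNA in the relation was not tested. For Pnpla2 r was 0.836 (exact permutation p of 0.00424, 0.0191 adjusted) and rho 0.75 (exact permutation p of 0.0255, 0.115 adjusted). The other 7 genes did not pass, with r from -0.681 for Dgat1 to 0.746 for Lipa. Fabp4, Fabp5, Plin2 and Angptl4 had r of 0.464, 0.275, -0.14 and 0.134. Without WT replicate 6 and KO replicate 2, the farthest libraries, r with Pparg was 0.936 (exact permutation p of 0.0101, 0.0857 adjusted, n = 7), and within submission numbers 6 to 12 it was 0.929 (exact permutation p of 0.0236, 0.212 adjusted, n = 6). The p-values treat the deviations as exchangeable, although subtracting the means ties them to each other. An r within genotypes was not computed for all genes, so how common such values are is unknown.

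With genotype means not subtracted, several other pairs of the 10 genes had a higher r over the 9 libraries than Lpl had with any of them. As a description, it was 0.906 between Fabp4 and Plin3, 0.903 between Fabp4 and Fabp5, 0.867 between Pparg and Pnpla2, 0.822 between Plin2 and Plin3 and 0.813 between Fabp5 and Angptl4. An r within genotypes was not computed for these pairs. For Lpl with Pparg it was 0.96, so the pairs cannot be ranked against Lpl within genotypes. Of the 9111 tested genes that averaged 5 TPM or more, the 5 with the highest r with Lpl were Scp2 (0.975), Ptpra (0.974), Lyz1 (0.972), Rab7b (0.971) and Myo1e (0.969). Scp2 encodes a sterol carrier protein and had 340, 392, 375, 344 and 362 TPM in KO replicates 1 to 5, against 318, 317, 337 and 315 TPM in WT replicates 1, 5, 6 and 7. Lyz1 was higher in KO, by 2.05 on the log2 scale with 12 libraries (limma adjusted p of 0.00892) and 2.15 with 9 (limma adjusted p of 0.0109). Its r with Lpl so also holds the difference between genotypes. The level of Lyz1 is uncertain, since it may share sequence with Lyz2, which was not measured. Cd36 ranked 85 of 9111 with r of 0.903, Pparg 889, Fabp4 1939 and Angptl4 7790. Cd36, picked after its values were seen, was the only gene of the other PPAR target list ranked here. Its KO and WT libraries did not overlap, so its r also holds the difference between genotypes. In KO the libraries had the same order in Cd36 as in Lpl. Of WT replicates 1, 5, 6 and 7, replicate 6 was highest in Lpl and lowest in Cd36. An r within genotypes was not computed for Cd36.

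**Figure D4:**
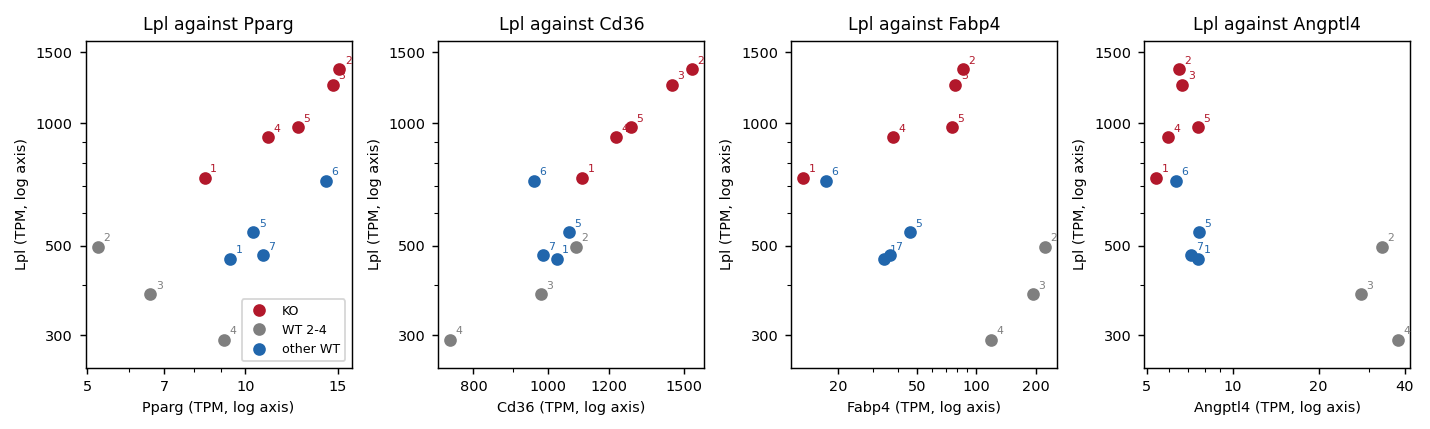
Lpl (TPM, log axis) against Pparg, Cd36, Fabp4 and Angptl4 (TPM, log axes) in each library, numbered by replicate. Lpl and Pparg have the same order in the 5 KO libraries, WT replicate 6 is the highest WT library in both, and WT replicates 2 to 4 lie at 28.10 to 37.93 TPM of Angptl4 and below all KO libraries in Lpl.

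Of the 21 other PPAR target genes tested, Cd36 and Tgm2 had all KO libraries above all 7 WT libraries, 2 of 21, where 2.92% of all genes tested did. Neither passed the test with 12 libraries. With 9 libraries, 6 of the 21 had all KO libraries above all WT libraries, where 7.09% of all genes tested did, and 0 had them below. The 6 were Cd36, Slc25a20, Hadhb, Abcg1, Etfdh and Tgm2. Cd36 had 1106, 1538, 1447, 1224 and 1281 TPM in KO replicates 1 to 5, against 1025, 1085, 979, 747, 1064, 958 and 983 TPM in WT replicates 1 to 7. All KO libraries lay above all WT libraries, the closest being KO replicate 1 and WT replicate 2. The log2 difference of Cd36 was 0.43 ± 0.10 (SE, limma adjusted p of 0.149) with 12 libraries and 0.38 ± 0.089 (SE, limma adjusted p of 0.0583) with 9. Of 27 other PPAR targets 21 were tested, and limma called 0 with 12 libraries, beside 0.126% of all genes tested. With 9 libraries it called 2, both higher in KO, beside 1.61% of all genes tested that were called higher. These calls were on TPM without further scaling. With median-ratio scaling, more of all genes tested were called lower than higher in KO. The values of the 2 genes under scaling were not examined. The transglutaminase gene Tgm2 averaged 235 ± 7.57 TPM in KO (SD, n = 5) and 188 ± 20.9 TPM in the other WT (SD, n = 4), with a log2 difference of 0.33 and a limma adjusted p of 0.0364. Slc25a20, encoding the carrier that brings acylcarnitines into mitochondria, averaged 35.0 ± 2.10 TPM in KO (SD, n = 5) and 28.8 ± 1.18 TPM in the other WT (SD, n = 4), with 0.27 and a limma adjusted p of 0.0294. In WT replicates 2 to 4, Slc25a20 was at 34.91 to 36.16 TPM, within the KO range. With 12 libraries the log2 difference was 0.60 for Tgm2 (limma adjusted p of 0.187) and 0.14 for Slc25a20 (limma adjusted p of 0.329). The median log2 difference of these 21 genes was -0.06 with 12 libraries and 0.09 with 9.

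With 0.126% of all genes called with 12 libraries and 2.33% with 9, a count of 0 in the short lists that follow is near the background. Of 10 receptor and partner genes (PPAR, RXR, coactivators and corepressors), 8 were tested and 0 called in either set, with log2 differences from -0.28 to 0.14 with 9 libraries. Of 18 genes for the maturation, binding and inhibition of lipoprotein lipase, 16 were in the table and 8 tested, and 0 were called. Of 14 droplet coat and growth genes 6 were tested, and of 16 genes of fatty acid uptake, binding and activation 11 were tested, again with 0 calls in either set by limma.

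Single genes of 2 further lists passed with 9 libraries. The counts were 1 of 8 and 1 of 14 genes tested, beside 2.33% of all genes tested in either direction. Of 12 genes of intracellular lipolysis 8 were tested, and Nceh1, which encodes a neutral hydrolase of cholesterol esters, was called at 175 ± 9.49 TPM in KO (SD, n = 5) and 144 ± 10.5 TPM in the other WT (SD, n = 4), with a log2 difference of 0.28 and a limma adjusted p of 0.0388. Of 16 genes of triglyceride and sterol ester synthesis 14 were tested, and Soat2, which encodes an enzyme esterifying cholesterol, was called lower at 2.48 ± 0.619 TPM in KO (SD, n = 5) and 4.32 ± 0.501 TPM in the other WT (SD, n = 4), with a log2 difference of -0.63 and a limma adjusted p of 0.0458. WT replicates 2 to 4 had 0.73 to 1.10 TPM of Soat2, below all KO libraries, and with 12 libraries its log2 difference was 0.00036 (limma adjusted p of 0.999). Nceh1 was at 82.85 to 103.07 TPM in WT replicates 2 to 4, below all other libraries. Its log2 difference with 12 libraries was 0.53 (limma adjusted p of 0.198). Some genes, such as Cd36 and Fabp3, stand in more than 1 list.

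**Figure D5:**
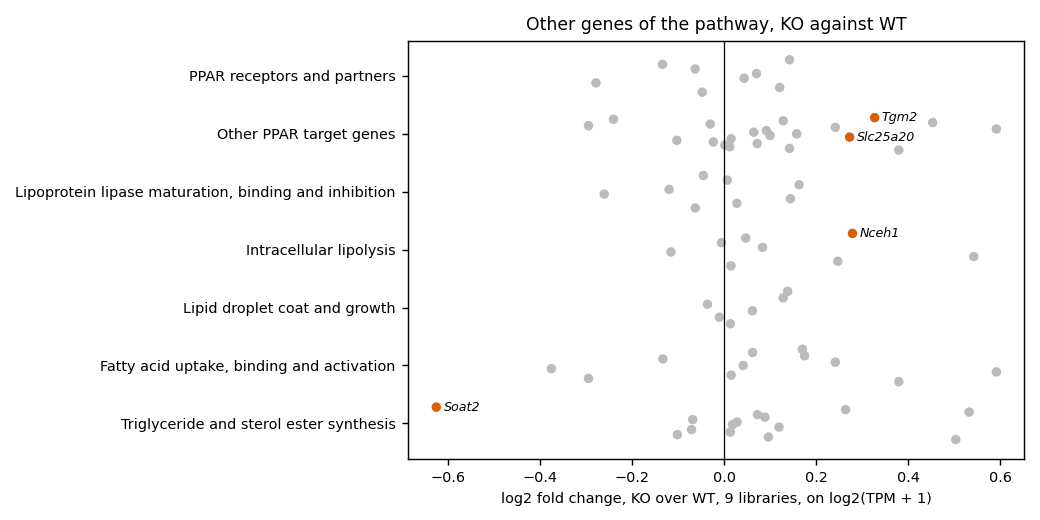
Log2 fold change of KO over WT on the log2(TPM + 1) scale with 9 libraries for every tested gene of 7 pathway lists, with genes of limma adjusted p under 0.05 in orange and named. The 4 named points are Tgm2, Slc25a20, Nceh1 and Soat2, from 0.33 down to -0.63.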

How the data were processed

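Per the labels' protocols, total RNA went through a NEBNext Ultra kit and was read as pairs of 51 bases on a NovaSeq. Tools named in the submitters' processing notes are Salmon 1.2.0 and bcl2fastq, and the build is mm10. Annotation release and strand setting: not given in the sources used here. Gene values were deposited by the authors as a single table, read here as TPM because of the tool and because each library summed to 940127 to 947987, with 1 column per library. Symbols and positions came from GENCODE M21 (23423 of 23438 IDs matched). The test was limma-trend (limma 3.58.1, R 4.3.3) on log2(TPM + 1), over the 11152 genes that reached 1 TPM in 5 or more libraries, with genotype as the only term and Benjamini-Hochberg adjustment over all genes tested, at a threshold of 0.05. Fold changes on this scale understate those of low genes. Exact permutation tests were two-sided. Alternatives were sample quality weights, median-ratio scaling, other filters, a replicate block, a pseudocount of 0.1, fits without single libraries and a term for submission numbers. The genes, pathway lists, markers and the rule for the genes named (the 10 genes, called pathway genes, Smarcd1 and the 5 genes most like Lpl) were chosen with earlier results of these data known. Cd36, Lyz2, the counts of PPAR targets whose groups did not overlap, the macrophage sum without Lyz2 and the left-out KO replicates 1 and 4 were chosen after their values were seen. Apoc2, Apoe, Lipe and Spart were not analysed here. Numbers of the replicates were not taken as pairs: deviations of same-numbered libraries correlated at 0.222, 0.204, 0.135, -0.224 and -0.181 for numbers 1 to 5.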

Additional observations from a re-analysis of the deposited data

How the results depend on the processing

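Depth behind each value is unknown, so counting error could not be separated from the spread between libraries. The direction of Lpl, KO over WT, was positive in every setting run. With 12 libraries its log2 difference was 1.07 with sample quality weights (limma adjusted p of 0.00302), 1.03 to 1.26 with 1 library left out (adjusted p below 0.05 only without WT replicate 6) and 0.92 without WT replicates 2 to 4. The exact permutation test of Lpl alone, on the same difference of 1.14, gave the p printed with it. With 9 libraries the call was lost at 0.87 with median-ratio scaling, 0.92 with no filter (limma adjusted p of 0.0914) and 0.94 with a term for submission numbers. It was 0.82 to 1.06 with 1 library left out, and called in 2 of these 9 fits (without KO replicate 1 or WT replicate 6). The replicate block, on libraries whose number occurs in both genotypes, gave 0.76 (limma adjusted p of 0.437), and 0.76 (0.515) without the block in the same libraries. The count of the 10 genes called was 1 with 12 libraries under weights and without WT replicates 2 to 4, and 0 to 1 with 1 left out. With 9 libraries it was 0 under scaling, no filter, the replicate block, the same libraries without it and the submission term, and 0 to 1 with 1 left out.

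Of all genes tested, 14 were called with 12 libraries (12 higher and 2 lower in KO) and 260 with 9 (180 and 80). With 12 libraries the count was 4 with scaling (2 and 2), 759 with weights, 3 with the submission term, 0 with the replicate block (3706 at an unadjusted p under 0.05), 260 without WT replicates 2 to 4, and 2 (without KO replicate 5) to 36 (without WT replicate 6) with 1 left out. With 9 libraries it was 167 with no filter, 758 with weights, 132 with the submission term, 0 with the replicate block (897 at an unadjusted p under 0.05) and 0 without it in the same libraries, and 51 (without WT replicate 1) to 462 (without WT replicate 6) with 1 left out. Scaling gave 225 (79 and 146), and moved the median of all genes by less than 0.1. The cause of these changes was not tested, except that fewer libraries entered the block and left-out fits. The 2 genes whose adjusted r with Lpl passed once genotype means were subtracted compare with 0 before.

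Genes under the threshold changed sign in some settings. With 12 libraries, Lipa was 0.0062 with weights and -0.087 to 0.0074 with 1 left out, Pnpla2 0.039 with weights and 0.022 without WT replicates 2 to 4, Plin2 0.11 and 0.19 in those settings and -0.17 to 0.020 with 1 left out, and Fabp4 0.47, 0.59 and -0.75 to 0.0065. Plin3 was -0.046 with scaling, -0.063 with and without the block, and -0.048 to 0.047 with 1 left out. With 9 libraries, Lipa was 0.012 with weights, 0.046 without KO replicates 1 and 4 (added after seeing the data) and -0.027 to 0.027 with 1 left out. Pnpla2 was -0.028 with scaling, -0.027 with and without the block and -0.014 to 0.054 with 1 left out. Fabp4 was -0.30 with and without the block, and Fabp5 0.48 without KO replicates 1 and 4 and -0.34 to 0.26 with 1 left out. Of the r values with Lpl, leaving out the 2 farthest libraries gave -0.053 for Lipa and -0.265 for Fabp5. With genotype means subtracted, r was -0.14 for Plin2, 0.134 for Angptl4 and -0.681 for Dgat1. Without the farthest 2 as well (added after seeing the data), r was 0.60 for Angptl4 and -0.672 for Dgat1. Within submission numbers 6 to 12 (also added), r was -0.655 for Plin2, -0.445 for Plin3, -0.283 for Fabp4, -0.422 for Fabp5 and -0.568 for Dgat1.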
